A study of Homo sapiens with 70 samples.

Results

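A list of 10 genes that mark fibroblast identity was followed through bulk RNA-seq counts of human lung fibroblasts and of a lung carcinoma line. The list holds the surface proteins *FAP*, *DPP4*, *THY1*, *PDGFRA* and *PDGFRB* and the transcription factors *TWIST1*, *TWIST2*, *PRRX1*, *FOXF1* and *TBX5*. The genes were listed by name, found by their Ensembl identifiers and make up 10 of the 44503 genes counted in each of 3 tables. IMR90 is a line of normal human fibroblasts from fetal lung, and every IMR90 library came from cells stably transduced with pLNCX2 ER:HRAS G12V, an oncogenic HRAS that 4-hydroxytamoxifen (4OHT) switches on. Oncogene-induced senescence (OIS) was set up with 100 nM 4OHT for 6 days, and growing (Grow) cells had no 4OHT. In the first experiment, Grow and OIS cells carried the empty pMSCV miR vector. Grow-shA1 and OIS-shA1 cells carried pMSCV miR shHMGA1, a hairpin against the chromatin protein HMGA1, and each of the 4 groups had 8 libraries. In the second experiment, cells carried a pSuper and a pMSCV miR construct together, with 5 libraries per group. Both constructs were empty in Grow-v-v and OIS-v-v cells. The OIS-shCEBPB cells had pSuper shCEBPB against C/EBPβ, OIS-shp53 cells had the hairpin pMSCV miR p53, and OIS-shCEBPB-shp53 cells had both hairpins. The third table held 7 libraries of H1299, a non-small cell lung carcinoma line, with the empty pMSCV miR vector and 6 of H1299-shA1 with pMSCV miR shHMGA1. The groups are thus transduced populations of 1 fibroblast line and 1 tumour line, all with a retroviral vector. The labels speak of biological replicates, and whether libraries of a group came from separate cultures is not said, so p-values measure the spread between these libraries.

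Fibroblasts are told apart from other lung cells by such genes. FAP (fibroblast activation protein) and DPP4 (dipeptidyl peptidase 4, CD26) are closely related serine proteases anchored in the cell membrane. DPP4 has been described on the surface of senescent fibroblasts. THY1 (CD90) is held on the membrane by a lipid anchor. PDGFRA and PDGFRB are the receptor tyrosine kinases for platelet-derived growth factors, which drive fibroblast growth and migration. TWIST1 and TWIST2 are basic helix-loop-helix factors that pair with E proteins. PRRX1 is a homeobox factor of limb, face and connective-tissue mesenchyme, FOXF1 is a forkhead factor of the lung and gut mesenchyme. TBX5 is a T-box factor of the heart, the forelimb and the lung mesenchyme.

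Promoter sequences are shown first for *DPP4*, *PDGFRB* and *PDGFRA*, the other PDGF receptor. Over all libraries *DPP4* moved most with the C/EBPβ hairpin alone and *PDGFRB* with the shp53 hairpin alone. They are RefSeq sequences of build GRCh38.p14, from 250 bases before to 50 bases after the start site, and 6 of the 10 genes had an entry, with 8 start sites. Capitals mark a C/EBP motif, searched on both strands as TTGCNNAA and its reverse complement TTNNGCAA, which was present in 10.5% of the 35116 human promoters of the same length. The *DPP4* promoter (chr2:162074166-162074465, minus strand) held 0 matches and was 25% A and T, against a median of 41.3% over all promoters.
DPP4: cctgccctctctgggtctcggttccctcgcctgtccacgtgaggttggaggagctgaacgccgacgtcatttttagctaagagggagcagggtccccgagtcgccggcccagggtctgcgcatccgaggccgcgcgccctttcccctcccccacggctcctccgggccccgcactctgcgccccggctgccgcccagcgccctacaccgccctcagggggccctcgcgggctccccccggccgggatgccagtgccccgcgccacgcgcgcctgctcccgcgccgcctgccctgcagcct
The first *PDGFRA* start site (chr4:54229043-54229342, plus strand) was 53% A and T and the second (chr4:54233710-54234009, plus strand) 33.3%, and each held 1 match.
PDGFRA start 1: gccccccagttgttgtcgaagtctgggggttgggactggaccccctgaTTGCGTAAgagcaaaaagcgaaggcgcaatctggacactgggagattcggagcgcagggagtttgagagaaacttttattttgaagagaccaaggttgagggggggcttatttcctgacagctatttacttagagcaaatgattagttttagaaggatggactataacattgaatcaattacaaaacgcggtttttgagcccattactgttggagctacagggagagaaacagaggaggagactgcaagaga
PDGFRA start 2: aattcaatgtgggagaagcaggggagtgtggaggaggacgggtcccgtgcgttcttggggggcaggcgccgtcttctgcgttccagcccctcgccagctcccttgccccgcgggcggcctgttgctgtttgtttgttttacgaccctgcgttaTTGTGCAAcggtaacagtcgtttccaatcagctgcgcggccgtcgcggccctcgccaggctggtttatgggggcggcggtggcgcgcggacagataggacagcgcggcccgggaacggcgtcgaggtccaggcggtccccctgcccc
The *PDGFRB* promoter (chr5:150155796-150156095, minus strand) held 0 matches and was 40.7% A and T.
PDGFRB: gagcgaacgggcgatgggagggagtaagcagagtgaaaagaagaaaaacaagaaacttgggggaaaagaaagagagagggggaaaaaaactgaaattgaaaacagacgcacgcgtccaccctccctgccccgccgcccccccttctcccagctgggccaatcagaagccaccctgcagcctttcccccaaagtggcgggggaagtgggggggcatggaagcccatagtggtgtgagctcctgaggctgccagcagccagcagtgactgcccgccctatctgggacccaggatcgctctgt
Of the other entries, that of *TWIST2* held 2 matches, 1 of the 2 start sites of *TBX5* held 1, and that of *PRRX1* held 0. A match is a run of letters in this window and not a measured binding site.

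Library totals ranged from 13904974 to 22136571 counts in the first experiment, apart from OIS replicate 4 with 1903607, from 14544053 to 24890797 in the second and from 17747670 to 23649765 in H1299 cells. In the second experiment, the libraries numbered 4 and 5 stood apart from those numbered 1 to 3 in every group along the first component of the deviations from the group means (36.7% of their variance). The labels name no batch, so values within both sets of libraries are given beside many of the member results they touch. Levels are CPM, counts scaled to the TMM-normalised library size. *HMGA1* and *CEBPB* were lower in the cells with their hairpins. *HMGA1* was 482 ± 41.4 CPM in Grow and 34.6 ± 3.92 CPM in Grow-shA1 cells (SD, n = 8). *CEBPB* was 295 ± 25.7 CPM in OIS-v-v and 35.5 ± 6.56 CPM in OIS-shCEBPB cells (SD, n = 5). All 12 fibroblast matrix markers had a mean of at least 1 CPM in each IMR90 group, but 5 of 12 in H1299 and 4 of 12 in H1299-shA1 cells. The epithelial marker *NKX2-1* had 0 counts in each IMR90 group and *CDH1* and *EPCAM* lay under 1 CPM in all 11 groups, H1299 included. *KRT8* and *KRT18* were the epithelial markers above 1 CPM in each group. Of 5 endothelial markers *CDH5* had a mean under 1 CPM in every IMR90 group, while *KDR* (1.26 and 2.91 CPM), *VWF* (1.03 and 1.32 CPM) and *CLDN5* (3.44 and 5.89 CPM) lay above it in OIS-v-v and OIS-shp53 cells, and *VWF* also in OIS cells (1.16 CPM). The endothelial receptor gene *TEK* was at 148 CPM in Grow and 79.3 CPM in OIS cells. Of 6 leukocyte markers, 5 had a mean under 1 CPM in every IMR90 group, *PTPRC* and *CD3E* among them. The sixth, *CD68*, a lysosomal protein gene, was at 19.2 CPM in Grow and 52 CPM in OIS cells and at 38.1 CPM in Grow-v-v and 63 CPM in OIS-v-v cells. The part of these markers in the results was not tested. In all of these values bulk counts cannot tell fewer cells of a kind from less RNA per cell.

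Each member was expressed in growing fibroblasts. Per kilobase of exon, the mean level in Grow libraries was highest for *FOXF1* (71 CPM per kb), *THY1* (64.2) and *PDGFRB* (56.9). An intermediate group held *PDGFRA* (18), *DPP4* (15.9), *PRRX1* (13.3) and *FAP* (12.4), and *TBX5* (5.53), *TWIST1* (5.07) and *TWIST2* (4.14) were lowest. In OIS libraries *FOXF1* was again first (80.2 CPM per kb), *DPP4* was second (41.2), *THY1* was sixth (10.4) and *TBX5* was last (2.46). Where the table headers state it, counting took no account of strand and dropped fragments that fell on exons of more than 1 gene. The exons of *FAP*, *DPP4*, *THY1*, *TWIST1* and *TBX5* overlap antisense genes by 471, 172, 632, 141 and 95 bases, and those of *PDGFRA* overlap *FIP1L1* on the same strand by 1533 bases, so levels of these 6 genes are less certain than those of the other 4.

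**Figure D1:**
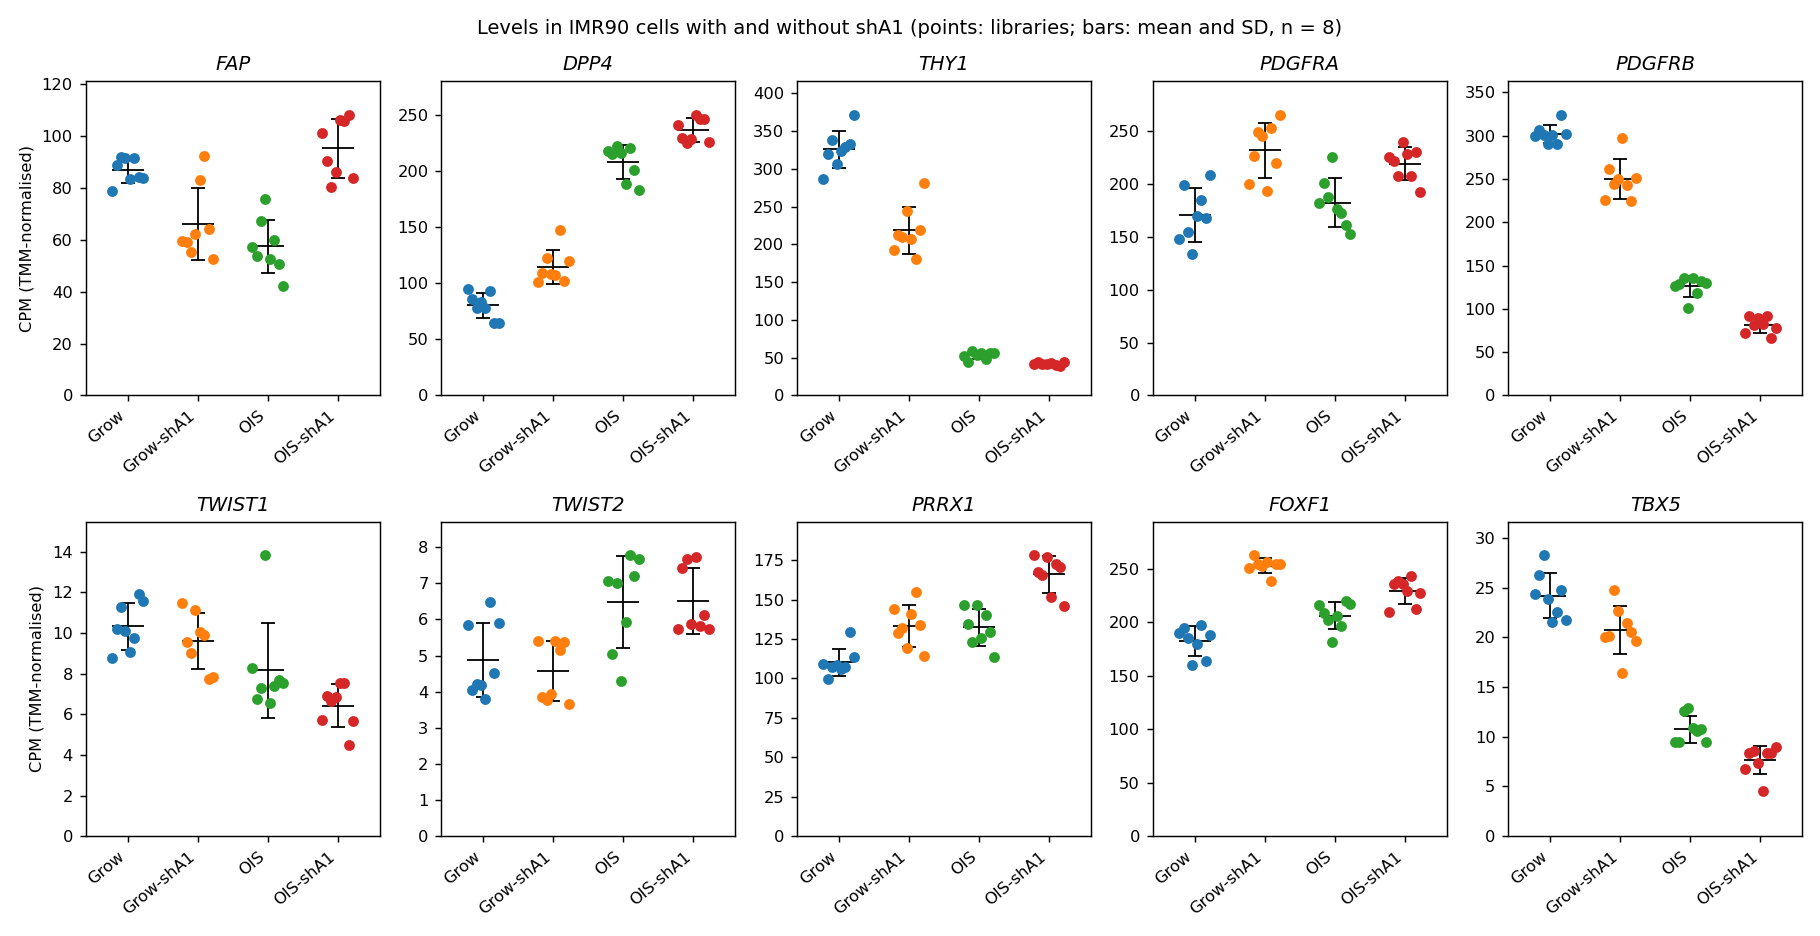
Level of each gene (vertical axes, CPM) in every library of the first experiment, with 8 libraries a group; points are libraries and the bar is the mean with its SD. The *THY1* libraries lie from 286 to 372 in Grow and from 43.8 to 58.9 CPM in OIS cells, while the *DPP4* libraries lie from 64.3 to 94.6 CPM and from 183 to 222 CPM.

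The first question was what became of these genes in OIS. Of the 10 members, 4 were higher and 5 were lower in OIS than in Grow cells (edgeR adjusted p under 0.05), where 74.8% of all genes tested were called, 38.8% higher and 35.9% lower. The direction differed between members of 1 class. Among surface proteins, *DPP4* rose and *THY1*, *PDGFRB* and *FAP* fell, and among transcription factors *TBX5* and *TWIST1* fell while *TWIST2*, *PRRX1* and *FOXF1* rose.

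*FAP* (ENSG00000078098, chromosome 2, 163027194 to 163101661, minus strand, hg19 throughout) had a lowest, median and highest level of 79, 86.6 and 91.9 CPM in Grow libraries and 42.3, 55.5 and 75.8 CPM in OIS libraries. All 8 OIS libraries lay below all Grow libraries, a 1.51-fold fall (log2 fold change -0.59, standard error 0.07, edgeR adjusted p = 2.19e-08). *DPP4* (ENSG00000197635, chromosome 2, 162848751 to 162931052, minus strand), which lies near *FAP* with *GCG* between them, had 64.3, 80.5 and 94.6 CPM in Grow and 183, 215 and 222 CPM in OIS libraries. Its groups did not overlap either, and it rose 2.66-fold (log2 fold change 1.41, standard error 0.07, edgeR adjusted p = 6.53e-17). *THY1* (ENSG00000154096, chromosome 11, 119288090 to 119295695, minus strand) had 286, 327 and 372 CPM in Grow and 43.8, 54.4 and 58.9 CPM in OIS libraries. This was the largest difference among the members, a 5.99-fold fall without overlap (log2 fold change -2.58, standard error 0.06, edgeR adjusted p = 7.4e-25).

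The PDGF receptors went separate ways. *PDGFRB* (ENSG00000113721, chromosome 5, 149493400 to 149535435, minus strand) had 290.0, 301 and 324 CPM in Grow and 101, 129 and 136 CPM in OIS libraries, a 2.31-fold fall without overlap (log2 fold change -1.21, standard error 0.04, edgeR adjusted p = 7.16e-20). *PDGFRA* (ENSG00000134853, chromosome 4, 55095264 to 55164414, plus strand) had 133, 168 and 208 CPM in Grow and 152, 179 and 225 CPM in OIS libraries, and these ranges overlapped (log2 fold change 0.12, interval -0.03 to 0.27, edgeR adjusted p = 0.163). When the TMM factors were left out and plain library totals used, which shifts the median of all genes up by 0.19 on the log2 scale, *PDGFRA* passed the threshold at a log2 fold change of 0.31 (edgeR adjusted p = 0.000541). It also passed without Grow replicate 8 (log2 fold change 0.16, edgeR adjusted p = 0.0436).

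Among the transcription factors, *TBX5* (ENSG00000089225, chromosome 12, 114791736 to 114846247, minus strand) had 21.6, 24.2 and 28.3 CPM in Grow and 9.44, 10.7 and 12.9 CPM in OIS libraries. The groups did not overlap, and the fall was 2.24-fold (log2 fold change -1.16, standard error 0.08, edgeR adjusted p = 4.86e-14). The other 4 moved less and their groups overlapped. *TWIST1* (ENSG00000122691, chromosome 7, 19060614 to 19157295, minus strand) fell from 10.3 ± 1.16 CPM to 8.17 ± 2.35 CPM (SD, n = 8, log2 fold change -0.41, standard error 0.10, edgeR adjusted p = 0.000513). Its paralogue *TWIST2* (ENSG00000233608, chromosome 2, 239756673 to 239795893, plus strand) rose from 4.88 ± 1.03 CPM to 6.49 ± 1.28 CPM (SD, n = 8, log2 fold change 0.50, standard error 0.13, edgeR adjusted p = 0.000799). *PRRX1* (ENSG00000116132, chromosome 1, 170631869 to 170708560, plus strand) rose from 110.2 ± 8.71 CPM to 132 ± 11.7 CPM (SD, n = 8, log2 fold change 0.30, standard error 0.05, edgeR adjusted p = 1.34e-05). *FOXF1* (ENSG00000103241, chromosome 16, 86544133 to 86548076, plus strand) rose from 182 ± 13.8 CPM to 206 ± 12.6 CPM (SD, n = 8, log2 fold change 0.22, standard error 0.05, edgeR adjusted p = 0.000128). Groups did not overlap for 5 of the 10 members, against 43.7% of all genes tested. Without OIS replicate 4, the library with the lowest total, 9 members were again called.

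The second experiment, with 2 empty vectors, asked the same question in 5 OIS-v-v against 5 Grow-v-v libraries. There, 1 member was higher and 4 were lower (45.8% of all genes tested were called, 22.7% higher and 23.2% lower), and groups did not overlap for 5 members (35% of all genes). *DPP4* was 99.8, 104, 96.5, 39.3 and 34.7 CPM in Grow-v-v libraries 1 to 5 and 266, 264, 259, 183 and 177 CPM in OIS-v-v libraries 1 to 5. Within both groups libraries 4 and 5 were the lowest, and *DPP4* was higher in OIS-v-v in both sets (log2 fold change 1.63, standard error 0.30, edgeR adjusted p = 0.000652, with 1.40 in libraries 1 to 3 and 2.28 in libraries 4 and 5). *THY1* was 298, 307, 309, 385 and 398 CPM in Grow-v-v and 197, 189, 188, 84.5 and 87.9 CPM in OIS-v-v libraries. It fell in both sets, by unequal amounts (log2 fold change -1.18, standard error 0.24, edgeR adjusted p = 0.00149, with -0.67 in libraries 1 to 3 and -2.18 in libraries 4 and 5).

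*TBX5* was 25.9, 28.3, 24.7, 25.3 and 25.2 CPM in Grow-v-v and 7.85, 8.45, 8.03, 12.5 and 11.4 CPM in OIS-v-v libraries. The 5 OIS-v-v libraries lay below all others (log2 fold change -1.41, standard error 0.14, edgeR adjusted p = 5.45e-06, with -1.69 in libraries 1 to 3 and -1.07 in libraries 4 and 5). *TWIST1* was 30.5, 29.7, 35.4, 28.9 and 32 CPM in Grow-v-v and 17.8, 15.7, 21.8, 18.7 and 17.1 CPM in OIS-v-v libraries and fell without overlap (log2 fold change -0.77, standard error 0.10, edgeR adjusted p = 6.38e-05, with -0.78 in libraries 1 to 3 and -0.77 in libraries 4 and 5). *PDGFRB* was 278, 318, 284, 182 and 138 CPM in Grow-v-v and 121, 131, 117, 127 and 133 CPM in OIS-v-v libraries. It fell over all libraries (log2 fold change -0.91, standard error 0.19, edgeR adjusted p = 0.00156) and in libraries 1 to 3 (log2 fold change -1.24, edgeR adjusted p = 1.88e-14), but the difference did not pass the threshold in libraries 4 and 5 (log2 fold change -0.30, edgeR adjusted p = 0.137).

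The other 5 members did not pass the test over all 10 libraries. *FAP* was 89.7 ± 2.96 CPM and 92.1 ± 8.61 CPM (SD, n = 5, log2 fold change 0.05, interval -0.10 to 0.20, edgeR adjusted p = 0.62), and the interval lies above the log2 fold change of -0.59 in the first experiment, though the 2 tables were counted apart and the difference between them was not tested. For *PDGFRA* the sets of libraries went in opposite directions. It was 130.2, 150.2, 134, 84 and 68.5 CPM in Grow-v-v and 73.9, 74.1, 71.4, 124 and 124 CPM in OIS-v-v libraries, lower in OIS-v-v in libraries 1 to 3 (log2 fold change -0.91, edgeR adjusted p = 5.48e-12) and higher in libraries 4 and 5 (log2 fold change 0.70, edgeR adjusted p = 0.00131), with -0.26 over all libraries (edgeR adjusted p = 0.385). *PRRX1* was 129, 122, 112, 131 and 111 CPM in Grow-v-v and 58.3, 55.2, 57.1, 144 and 123 CPM in OIS-v-v libraries. It was lower in OIS-v-v in libraries 1 to 3 (log2 fold change -1.09, edgeR adjusted p = 1.21e-13) and not distinguishable in libraries 4 and 5 (log2 fold change 0.14, edgeR adjusted p = 0.472), with log2 fold change -0.46, interval -0.96 to 0.05, edgeR adjusted p = 0.17 over all libraries. *TWIST2* was higher in libraries 1 to 3 (log2 fold change 0.48, edgeR adjusted p = 0.000133) but had -0.0015 (edgeR adjusted p = 0.997) in libraries 4 and 5. *FOXF1* was lower in libraries 1 to 3 (log2 fold change -0.15, edgeR adjusted p = 0.00801) and had 0.35 (edgeR adjusted p = 0.066) in libraries 4 and 5. Over the 50 pairs of a member and a group, libraries 1 to 3 did not overlap libraries 4 and 5 in 35, against 54.9% of 70185 such pairs over all genes tested. *DPP4* and *THY1* were apart in 5 of 5 groups and *TWIST1* in 0 of 5. The part of library preparation or sequencing in this split was not tested.

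**Figure D2:**
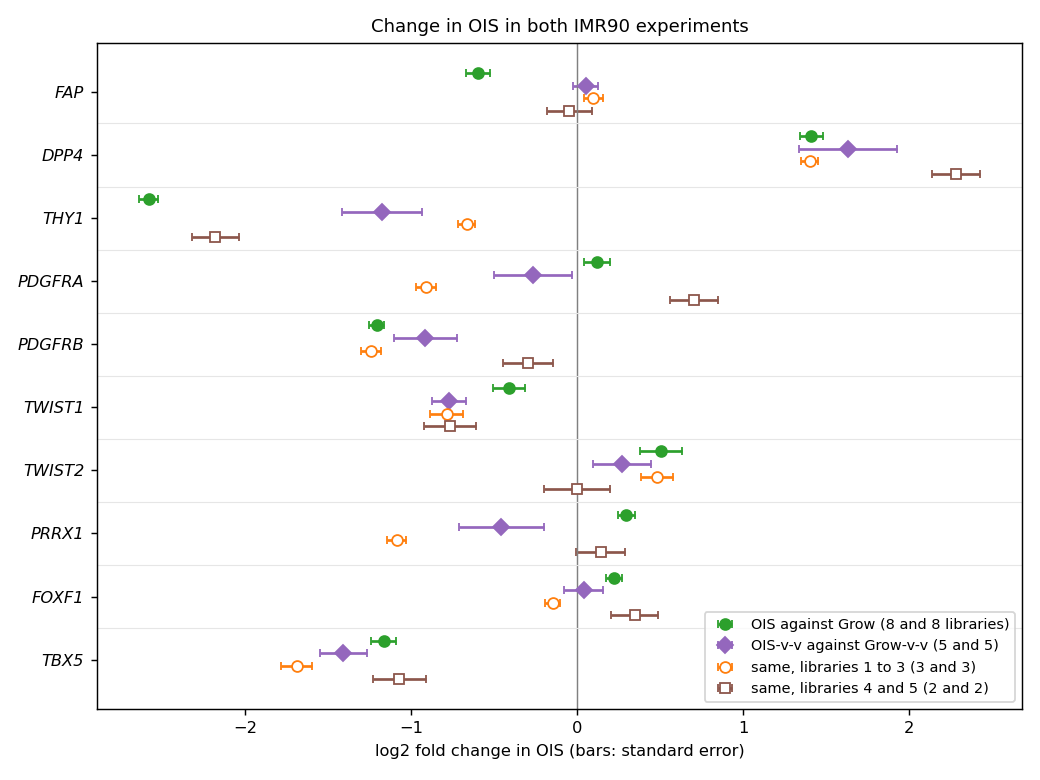
Log2 fold change in OIS (horizontal axis) of each gene in the first experiment (filled circles, 8 against 8 libraries), in the second (diamonds, 5 against 5) and within its libraries 1 to 3 and 4 and 5 (open circles and squares), with bars of 1 standard error. *DPP4* lies right of 0 and *THY1*, *PDGFRB*, *TWIST1* and *TBX5* left of 0 in all 4, whereas *PDGFRA* lies at -0.91 and 0.70 in the sets of libraries.

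**Figure D3:**
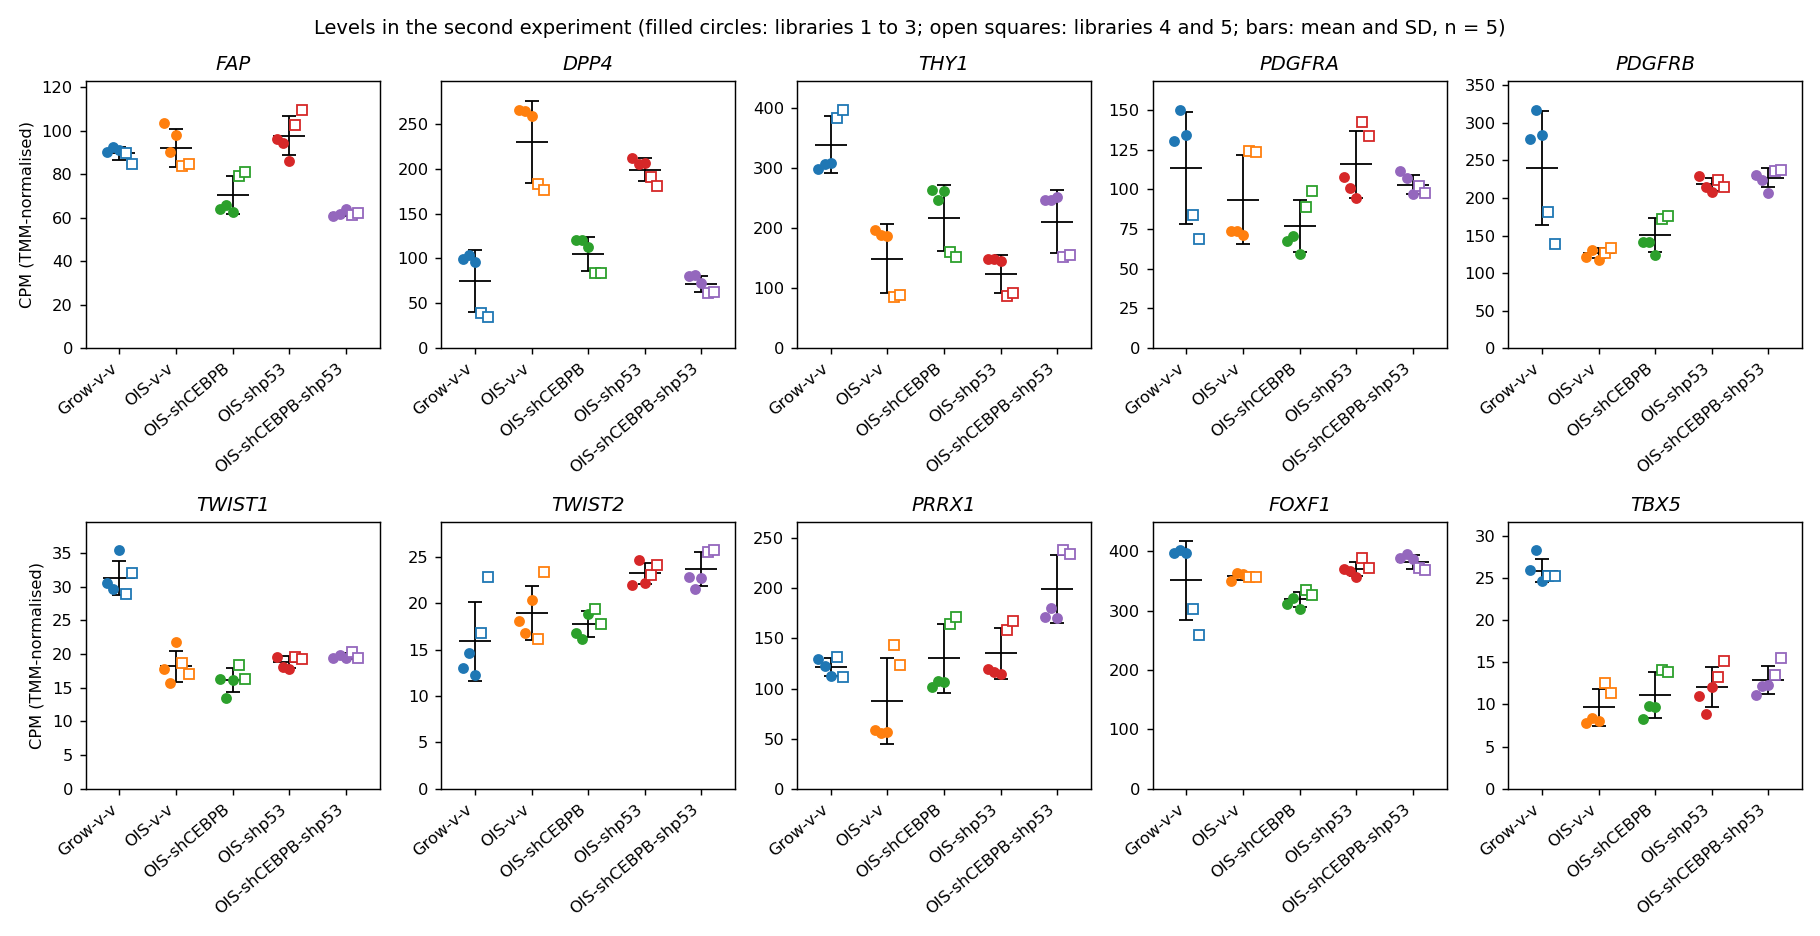
Level of each gene (vertical axes, CPM) in every library of the second experiment, with filled circles for libraries 1 to 3, open squares for libraries 4 and 5 and bars for the mean and SD. In OIS-v-v cells *PRRX1* is 55.2 to 58.3 CPM in libraries 1 to 3 and 123 to 144 CPM in libraries 4 and 5.

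The knock-down of HMGA1 was then compared within growing and within senescent cells. In Grow-shA1 cells 4 members were higher and 4 lower than in Grow cells, where 29.9% of all genes tested were called (14.8% higher and 15.1% lower). In OIS-shA1 cells 5 were higher and 3 lower than in OIS cells, where 35.9% were called (18.8% higher and 17.1% lower). Both comparisons had *DPP4*, *PDGFRA*, *PRRX1* and *FOXF1* among the higher and *THY1*, *PDGFRB* and *TBX5* among the lower genes. *FAP* fell in one and rose in the other.

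*FAP* had 52.6, 60.9 and 92.4 CPM as the lowest, median and highest level in Grow-shA1 libraries, where Grow libraries had 79, 86.6 and 91.9 CPM. It fell, with 6 of 8 shA1 libraries below and 1 above every Grow library (log2 fold change -0.39, standard error 0.08, edgeR adjusted p = 0.000886). In OIS-shA1 libraries it had 80.3, 95.8 and 108 CPM, all 8 above the OIS libraries, a 1.70-fold rise (log2 fold change 0.77, standard error 0.08, edgeR adjusted p = 3.33e-08). The change with shA1 in OIS cells minus that in Grow cells, which had opposite signs, was thus 1.16 on the log2 scale (standard error 0.13, edgeR adjusted p = 5.79e-09). The mean OIS-shA1 level lay above that of Grow cells, with overlapping ranges. This difference between the 2 changes passed the test for 4 members, against 23.6% of all genes tested. It did not pass for *PDGFRA* (-0.16), *TWIST1* (-0.13), *TWIST2* (0.04) and *TBX5* (-0.23, edgeR adjusted p of these 0.203 to 0.898). With library sizes alone *PDGFRA* (-0.28, edgeR adjusted p = 0.031) and *TBX5* (-0.35, edgeR adjusted p = 0.04) passed.

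*DPP4* had 101, 109 and 147 CPM in Grow-shA1 and 225, 235 and 249.9 CPM in OIS-shA1 libraries. All 8 libraries lay above those without shA1 in both states. The rise was larger in Grow (log2 fold change 0.52, standard error 0.08, edgeR adjusted p = 1.32e-05) than in OIS cells (log2 fold change 0.19, standard error 0.04, edgeR adjusted p = 0.00142), a difference of -0.33 (edgeR adjusted p = 0.00915). Over the 4 groups *DPP4* thus had the order Grow, Grow-shA1, OIS and OIS-shA1 from low to high, with no overlap between neighbours. With library sizes alone its rise in OIS cells was 0.10 and did not pass the threshold (edgeR adjusted p = 0.0615).

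*THY1* had 181, 211 and 281 CPM in Grow-shA1 libraries, all below the Grow libraries (log2 fold change -0.57, standard error 0.07, edgeR adjusted p = 1.86e-07). It had 38.6, 41.6 and 44.9 CPM in OIS-shA1 libraries, which overlapped those of OIS cells (log2 fold change -0.34, standard error 0.06, edgeR adjusted p = 4.53e-05). *PDGFRB* had 224, 247 and 298 CPM in Grow-shA1 libraries (log2 fold change -0.27, standard error 0.05, edgeR adjusted p = 7.07e-05). It had 66.9, 82.1 and 92.2 CPM in OIS-shA1 libraries, all below the OIS libraries (log2 fold change -0.64, standard error 0.06, edgeR adjusted p = 4.73e-09). Its fall was larger in OIS cells, with a difference of -0.37 on the log2 scale (edgeR adjusted p = 0.000604). Both genes had also fallen in OIS itself. The difference between the 2 states did not pass the threshold for *THY1* (log2 fold change 0.24, interval 0.06 to 0.42, edgeR adjusted p = 0.0537). It did so with no filter on low counts (edgeR adjusted p = 0.0463), with the replicate number as a block (edgeR adjusted p = 0.0205), and without Grow library 1, Grow-shA1 library 4 or 8, OIS library 3, 5 or 8 or OIS-shA1 library 7 (edgeR adjusted p = 0.0064 to 0.0491). *PDGFRA* rose in Grow cells from 171 ± 25.6 CPM to 232 ± 25.9 CPM (log2 fold change 0.45, standard error 0.08, edgeR adjusted p = 5.49e-05). In OIS cells it rose from 182 ± 23.1 CPM to 219 ± 15.4 CPM (SD, n = 8, log2 fold change 0.28, standard error 0.06, edgeR adjusted p = 0.000477), with overlapping ranges in both.

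*FOXF1* had 239, 254 and 263 CPM in Grow-shA1 libraries, all above the Grow libraries (log2 fold change 0.48, standard error 0.04, edgeR adjusted p = 2.77e-09). In OIS-shA1 libraries it had 209, 233 and 244 CPM (log2 fold change 0.15, standard error 0.04, edgeR adjusted p = 0.00856), which overlapped the OIS libraries. The change in OIS less that in Grow cells was -0.33 (edgeR adjusted p = 6.12e-05). With library sizes alone the log2 fold change in OIS cells was 0.06 and did not pass the threshold (edgeR adjusted p = 0.279). *FENDRR*, the long noncoding RNA gene next to *FOXF1*, also rose, from 186 to 290.3 CPM in Grow cells (log2 fold change 0.64, standard error 0.06, edgeR adjusted p = 1.76e-09). In OIS cells it rose from 165 to 200.3 CPM (log2 fold change 0.28, standard error 0.04, edgeR adjusted p = 1.41e-05). *PRRX1* rose in Grow (log2 fold change 0.28, standard error 0.05, edgeR adjusted p = 0.00028) and OIS cells (log2 fold change 0.33, standard error 0.05, edgeR adjusted p = 1.12e-05), with a difference of 0.06 between them (interval -0.10 to 0.21).

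*TBX5* had 4.51, 8.35 and 8.95 CPM in OIS-shA1 libraries, all 8 below the OIS libraries (log2 fold change -0.46, standard error 0.11, edgeR adjusted p = 0.00157). In Grow-shA1 libraries it had 16.4, 20.4 and 24.8 CPM, which overlapped the Grow libraries (log2 fold change -0.22, standard error 0.07, edgeR adjusted p = 0.0218), and this call was lost without Grow replicate 3 (log2 fold change -0.18, edgeR adjusted p = 0.0595). *TBX5-AS1*, transcribed from the opposite strand at the same locus, also fell, by 0.28 in Grow cells (edgeR adjusted p = 0.00151) on the log2 scale. *TWIST1* was 9.59 ± 1.37 CPM in Grow-shA1 libraries (log2 fold change -0.11, interval -0.28 to 0.07, edgeR adjusted p = 0.412). It was 6.42 ± 1.06 CPM in OIS-shA1 libraries (log2 fold change -0.24, interval -0.47 to -0.01, edgeR adjusted p = 0.111). *TWIST2* was 4.57 ± 0.822 CPM in Grow-shA1 libraries (log2 fold change -0.08, interval -0.35 to 0.18, edgeR adjusted p = 0.693). It was 6.51 ± 0.921 CPM in OIS-shA1 libraries (log2 fold change -0.04, interval -0.26 to 0.18, edgeR adjusted p = 0.8). Neither TWIST gene passed the test with shA1, though *TWIST1* in OIS cells did so with library sizes alone (-0.33, edgeR adjusted p = 0.0277). Groups did not overlap for 3 members in Grow and 4 in OIS cells, against 7.64% and 9.29% of all genes tested.

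**Figure D4:**
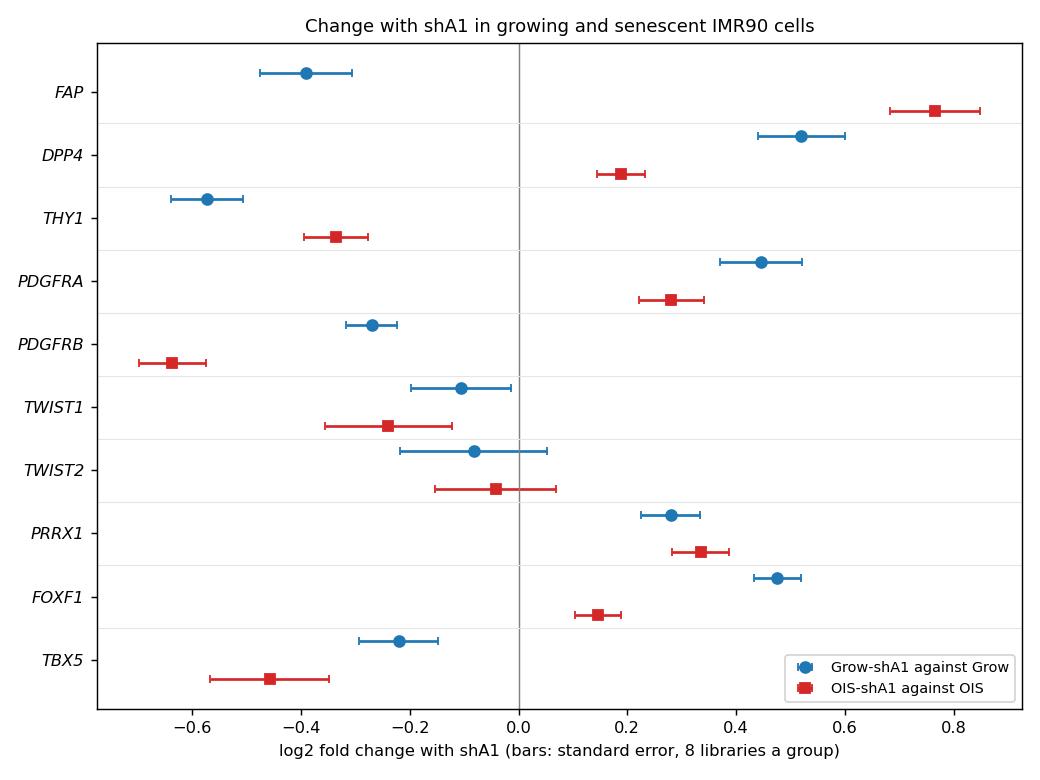
Log2 fold change with shA1 (horizontal axis) of each gene in Grow (circles) and OIS cells (squares), from 8 libraries a group, with bars of 1 standard error. *FAP* lies at -0.39 in Grow and 0.77 in OIS cells, and the other members lie on the same side of 0 in both.

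In the second experiment, the C/EBPβ and shp53 hairpins were compared with OIS-v-v cells. Same-numbered libraries deviated together in every comparison. The closest match of a library had its own number for 3 of 5 libraries with the C/EBPβ hairpin, 2 with shp53 and 3 with both. The part of the split into libraries 1 to 3 and 4 and 5 in this was not tested. Each value is also given with the replicate number as a block where that changes the call. With the C/EBPβ hairpin 3 members were lower and 0 higher (17.1% of all genes tested were called, 9.09% higher and 8.0% lower). With the block, 3 were higher and 4 lower, where 31.9% of all genes were called. *DPP4* was the member with the largest difference. It was 266, 264, 259, 183 and 177 CPM in OIS-v-v and 121, 121, 113, 84.3 and 84.3 CPM in OIS-shCEBPB libraries, without overlap, a 2.20-fold fall (log2 fold change -1.14, standard error 0.16, edgeR adjusted p = 0.000348) with -1.16 in libraries 1 to 3 and -1.11 in libraries 4 and 5. *FAP* was 104, 90.2, 98.3, 83.7 and 84.9 CPM in OIS-v-v and 64.2, 65.8, 62.5, 79.1 and 81 CPM in OIS-shCEBPB libraries (log2 fold change -0.39, standard error 0.09, edgeR adjusted p = 0.00834). It fell in libraries 1 to 3 (log2 fold change -0.61, edgeR adjusted p = 1.23e-07) and did not pass the threshold in libraries 4 and 5 (log2 fold change -0.09, edgeR adjusted p = 0.416). *FOXF1* fell from 357 ± 5.51 CPM to 319 ± 12.4 CPM (SD, n = 5, log2 fold change -0.17, standard error 0.05, edgeR adjusted p = 0.0252), a call that was lost with library sizes alone (-0.10, edgeR adjusted p = 0.196), with no filter on low counts (edgeR adjusted p = 0.116) and with all groups in 1 fit (edgeR adjusted p = 0.169). It was also lost without OIS-v-v library 2 or 3 or OIS-shCEBPB library 1 or 3 (edgeR adjusted p = 0.0568 to 0.0697). In libraries 1 to 3 *FOXF1* had -0.21 (edgeR adjusted p = 0.00149), and in libraries 4 and 5 -0.12 (edgeR adjusted p = 0.19).

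For 4 other members the block changed the call. *THY1* was 197, 189, 188, 84.5 and 87.9 CPM in OIS-v-v and 264, 247, 262, 160.5 and 153 CPM in OIS-shCEBPB libraries, higher at each number. The difference did not pass the plain test (log2 fold change 0.54, standard error 0.27, edgeR adjusted p = 0.212) but did so with the block (log2 fold change 0.59, edgeR adjusted p = 5.75e-05). It also passed in libraries 1 to 3 (0.42) and in libraries 4 and 5 (0.85). *PRRX1* was 58.3, 55.2, 57.1, 144 and 123 CPM in OIS-v-v and 102, 108, 107, 164 and 171 CPM in OIS-shCEBPB libraries, likewise higher at each number (log2 fold change 0.57, standard error 0.29, edgeR adjusted p = 0.22, and with the block 0.65, edgeR adjusted p = 0.000286). In libraries 1 to 3 it had 0.88 and in libraries 4 and 5 0.32, and both passed. The log2 fold change of *PDGFRB* was 0.25 in the plain test (edgeR adjusted p = 0.0759) and 0.24 (edgeR adjusted p = 0.00546) with the block. That of *PDGFRA* was -0.29 (edgeR adjusted p = 0.372) in the plain test and -0.27 (edgeR adjusted p = 0.00521) with the block. Both passed in libraries 4 and 5 (0.41 and -0.42) and not in libraries 1 to 3 (0.13 and -0.16, edgeR adjusted p = 0.116 and 0.0647). *TWIST1*, *TWIST2* and *TBX5* passed neither test. Groups did not overlap for 3 members, against 15% of all genes tested.

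With the shp53 hairpin 1 member was called in the plain test, where 4.44% of all genes were called (2.47% higher and 1.97% lower). *PDGFRB* was 121, 131, 117, 127 and 133 CPM in OIS-v-v and 229.6, 215, 208, 224 and 214 CPM in OIS-shp53 libraries. All 5 libraries lay above the OIS-v-v libraries, a 1.73-fold rise (log2 fold change 0.79, standard error 0.05, edgeR adjusted p = 7.59e-06), with 0.82 in libraries 1 to 3 and 0.75 in libraries 4 and 5. With the block, 5 members were higher and 2 lower, and 22.7% of all genes were called. Beside *PDGFRB* these were *PRRX1* with 0.72 (edgeR adjusted p = 0.000732) against 0.63 in the plain test (edgeR adjusted p = 0.233), *PDGFRA* with 0.33 (edgeR adjusted p = 0.00152), *TBX5* with 0.33 (edgeR adjusted p = 0.0268) and *TWIST2* with 0.30 (edgeR adjusted p = 0.016). The lower genes were *DPP4* with -0.19 (edgeR adjusted p = 0.0474) and *THY1* with -0.21 (edgeR adjusted p = 0.0393). Both fell in libraries 1 to 3, *DPP4* by a log2 fold change of -0.34 (edgeR adjusted p = 1.65e-07) and *THY1* of -0.38 (edgeR adjusted p = 6.77e-08), but had 0.05 (edgeR adjusted p = 0.747) and 0.06 (edgeR adjusted p = 0.731) in libraries 4 and 5. Of the higher genes other than *PDGFRB*, all 4 passed in libraries 1 to 3, with log2 fold changes of 1.04 for *PRRX1*, 0.47 for *PDGFRA*, 0.41 for *TBX5* and 0.31 for *TWIST2*. In libraries 4 and 5 *PRRX1* had 0.29 (edgeR adjusted p = 0.0439), *PDGFRA* 0.15 (edgeR adjusted p = 0.208), *TBX5* 0.24 (edgeR adjusted p = 0.318) and *TWIST2* 0.26 (edgeR adjusted p = 0.326). *FAP* was 97.9 ± 8.97 CPM (log2 fold change 0.09, interval -0.07 to 0.24, edgeR adjusted p = 0.587), with -0.08 (edgeR adjusted p = 0.257) in libraries 1 to 3 and a rise of 0.33 (edgeR adjusted p = 0.0109) in libraries 4 and 5. *FOXF1* had 0.05 (edgeR adjusted p = 0.552) and *TWIST1* 0.05 (edgeR adjusted p = 0.812) in the plain test. Neither passed with the block (edgeR adjusted p = 0.369 and 0.688). *PDGFRB* was the 1 member whose groups did not overlap, against 7.29% of all genes tested.

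With both hairpins, 4 members were higher and 2 lower than in OIS-v-v cells (33.6% of all genes tested were called, 17.1% higher and 16.5% lower), and groups did not overlap for 5 members (24.1% of all genes). These were *DPP4*, *FAP*, *PDGFRB*, *PRRX1* and *FOXF1*, of which *FOXF1* was not called. *DPP4* was 80.1, 81.3, 72.7, 62 and 62.3 CPM in OIS-shCEBPB-shp53 libraries, a 3.23-fold fall (log2 fold change -1.69, standard error 0.14, edgeR adjusted p = 2.66e-06) to a range that overlapped that of Grow-v-v over all 5 libraries. Within the sets it did not overlap: libraries 1 to 3 lay below those of Grow-v-v (72.7 to 81.3 against 96.5 to 104 CPM) and libraries 4 and 5 above them (62 to 62.3 against 34.7 to 39.3 CPM). *FAP* was 60.9, 61.7, 63.9, 61.2 and 62.4 CPM, all below the OIS-v-v libraries (log2 fold change -0.58, standard error 0.06, edgeR adjusted p = 2.98e-05, with -0.65 in libraries 1 to 3 and -0.46 in libraries 4 and 5). *PDGFRB* was 230.5, 223, 207, 236 and 238 CPM, all above the OIS-v-v libraries (log2 fold change 0.84, standard error 0.06, edgeR adjusted p = 4.22e-07). *PRRX1* was 172, 181, 170.5, 238 and 234 CPM, also above all of them (log2 fold change 1.17, standard error 0.27, edgeR adjusted p = 0.00517, with 1.61 in libraries 1 to 3 and 0.81 in libraries 4 and 5). *TWIST2* (log2 fold change 0.31, standard error 0.10, edgeR adjusted p = 0.0361) and *TBX5* (log2 fold change 0.41, standard error 0.15, edgeR adjusted p = 0.0481) rose by less, and each call was lost in 7 of the 10 fits that left out 1 library. *TWIST2* passed in both sets of libraries (0.27 and 0.37). *TBX5* passed in libraries 1 to 3 (0.55) but not in libraries 4 and 5 (0.26, edgeR adjusted p = 0.128). *THY1* had 0.49 in the plain test (edgeR adjusted p = 0.179) and 0.54 (edgeR adjusted p = 0.00034) with the block. It also passed in libraries 1 to 3 (0.38) and in libraries 4 and 5 (0.83). *PDGFRA* again differed between the sets, with 0.52 (edgeR adjusted p = 7.53e-08) in libraries 1 to 3 and -0.32 (edgeR adjusted p = 0.000958) in libraries 4 and 5. *FOXF1* (mean 382 against 357 CPM) did not pass (log2 fold change 0.08, edgeR adjusted p = 0.179). It did so with library sizes alone (0.19, edgeR adjusted p = 0.00688) and in libraries 1 to 3 (0.12, edgeR adjusted p = 0.0148). In libraries 4 and 5 it had 0.04 (edgeR adjusted p = 0.643). *TWIST1* had 0.10 (edgeR adjusted p = 0.382).

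Whether the double knock-down differed from the sum of the single ones was tested as an interaction over the 4 OIS groups of this experiment. edgeR called 0 of the 10 members (0.0432% of all genes tested), with 3 members at an unadjusted p under 0.05, and DESeq2 called 1, *FOXF1*, at 0.21 (adjusted p = 0.00394). *DPP4* had a difference of -0.34 (interval -0.70 to 0.03, edgeR adjusted p = 0.999), and with the block it passed the threshold at -0.35 (edgeR adjusted p = 0.0458). It also passed in libraries 1 to 3 (-0.27, edgeR adjusted p = 0.0187) and in libraries 4 and 5 (-0.49, edgeR adjusted p = 0.00106). In libraries 1 to 3 *THY1* (0.32), *FOXF1* (0.29) and *PRRX1* (-0.32) passed too, where 3.32% of all genes were called. In libraries 4 and 5 *FAP* (-0.70) and *PDGFRB* (-0.30) did so (2.13%). *FAP* had 0.02 in libraries 1 to 3 (edgeR adjusted p = 0.921). *PDGFRA* (0.11), *TWIST1* (0.24), *TWIST2* (0.12) and *TBX5* (-0.11) did not pass over all libraries (edgeR adjusted p = 0.984 to 0.999).

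**Figure D5:**
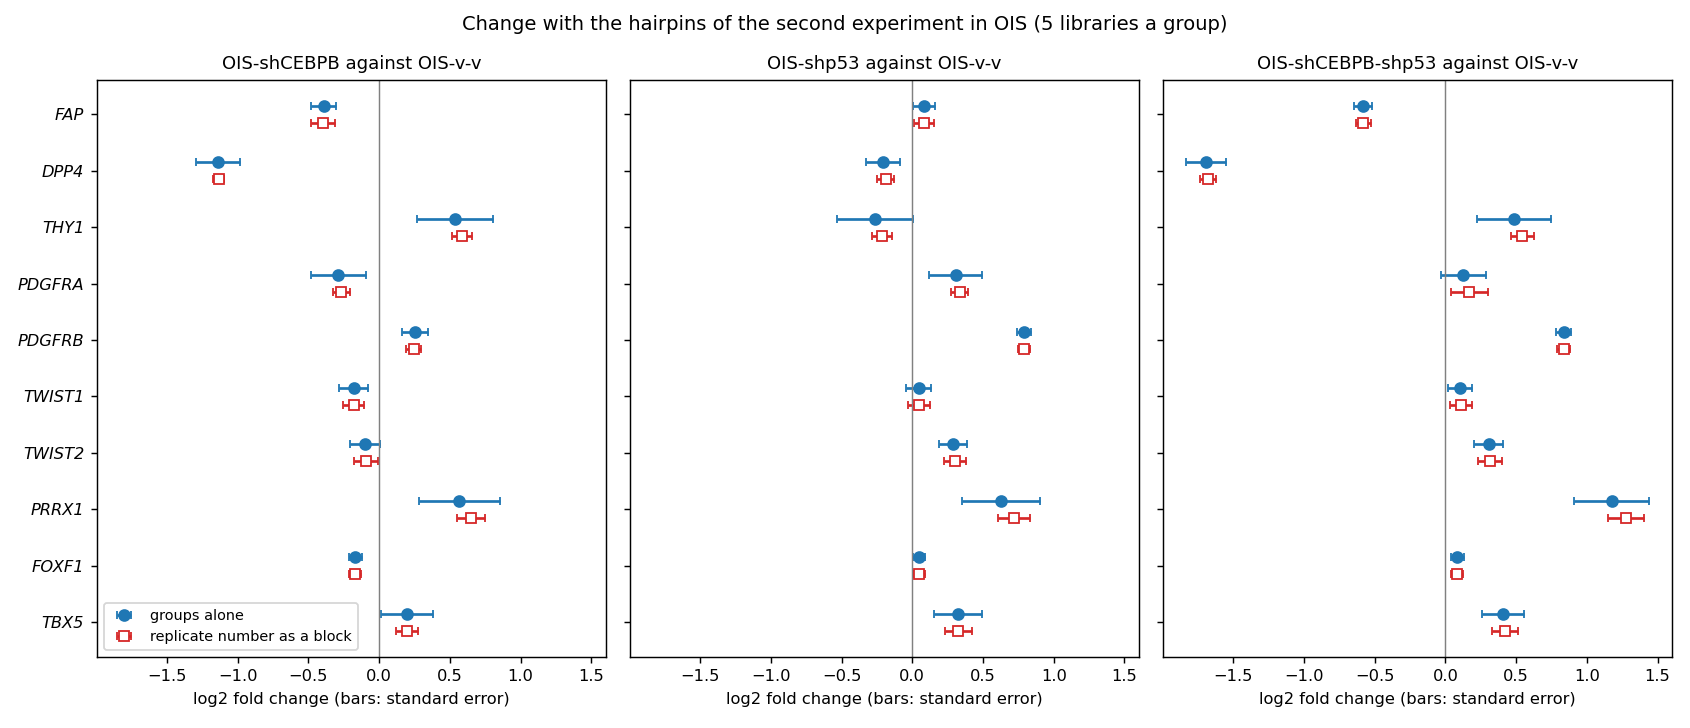
Log2 fold change against OIS-v-v cells (horizontal axis) of each gene with the C/EBPβ hairpin, the shp53 hairpin and both, from 5 libraries a group, with bars of 1 standard error. *DPP4* lies at -1.14 and -1.69 with the C/EBPβ hairpin alone and with both, and *PDGFRB* at 0.79 and 0.84 with the shp53 hairpin alone and with both.

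The order of the groups by mean level summarises these comparisons. In the first experiment *THY1*, *PDGFRB*, *TBX5* and *TWIST1* had 1 order, falling from Grow over Grow-shA1 and OIS to OIS-shA1. Ranges of neighbours overlapped between OIS and OIS-shA1 for *THY1*, between Grow and Grow-shA1 for *PDGFRB* and *TBX5*, and throughout for *TWIST1*. *DPP4* had the opposite order, with no overlap. The order of *FAP* was OIS-shA1, Grow, Grow-shA1 and OIS from high to low, and all neighbours overlapped, as they did for *PDGFRA*, *TWIST2*, *PRRX1* and *FOXF1*. In the second experiment, *DPP4* was apart between OIS-shp53 above and OIS-shCEBPB below, *FAP* between Grow-v-v above and OIS-shCEBPB below, and *PDGFRB* between OIS-shp53 above and OIS-shCEBPB below. Grow-v-v stood alone at the top for *THY1*, *TWIST1* and *TBX5*. For *PRRX1*, OIS-shCEBPB-shp53 had the highest mean and was apart from its neighbour OIS-shp53. Its lowest *PRRX1* library (170.47 CPM) lay below the highest of OIS-shCEBPB (171.246 CPM), so these ranges overlapped. Over both sets of libraries together, the neighbours not named here overlapped, and those of *PDGFRA*, *TWIST2* and *FOXF1* did so throughout.

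In H1299 carcinoma cells most of these genes were near 0. Summed over all libraries, *FAP* had 23 and 12 counts in H1299 and H1299-shA1 cells, *DPP4* 13 and 19, *THY1* 3 and 1, *PDGFRB* 16 and 13, *FOXF1* 4 and 11 and *TBX5* 0 and 1. These 6 members did not pass the filter on low counts, and 3 counts in 1 library correspond to 0.127 to 0.169 CPM. The 4 members that were tested are *PDGFRA* and the transcription factors *TWIST1*, *TWIST2* and *PRRX1*. *PRRX1* had 14, 17.3 and 18.3 CPM as the lowest, median and highest level in H1299 and 22.5, 24.7 and 29.2 CPM in H1299-shA1 libraries. All 6 shA1 libraries lay above the 7 others, and it rose (log2 fold change 0.60, standard error 0.08, edgeR adjusted p = 2.19e-05), as 1 of 4 members tested where 15.6% of all genes were called (8.65% higher) and 5.21% did not overlap. *TWIST1* was 15.8 ± 0.990 CPM and 16.7 ± 0.880 CPM (SD, n = 7 and n = 6, log2 fold change 0.08, interval -0.03 to 0.19, edgeR adjusted p = 0.378). *TWIST2* was 7.0 ± 0.739 CPM and 7.33 ± 0.529 CPM (SD, n = 7 and n = 6, log2 fold change 0.07, interval -0.09 to 0.22, edgeR adjusted p = 0.635). *PDGFRA* was 0.762 ± 0.157 CPM and 1.11 ± 0.366 CPM (SD, n = 7 and n = 6, log2 fold change 0.53, interval 0.12 to 0.94, edgeR adjusted p = 0.0938), and it passed the threshold without H1299-shA1 replicate 7 (0.63, edgeR adjusted p = 0.0337).

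Many of these changes were small. When a change of at least 1.5-fold was asked for as well, 5 members were called in OIS (against 36.5% of all genes tested) and 5 in OIS-v-v cells (27.4%). With shA1, 0 were called in Grow (5.64%), 2 in OIS (7.36%) and 1 in H1299 cells (2.41%), and 1, *FAP*, for the difference between Grow and OIS (5.63%). The C/EBPβ hairpin left 1 (7.21%), the shp53 hairpin 1 (1.76%) and both 3 (13.4%), and the double knock-down against the sum left 0 (0.0216%).

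Genes that work with the members were then counted from lists. In parentheses stand the median log2 fold change over the tested genes of a list and over all genes tested. The block raised the share of all genes called from 17.1% to 31.9% with the C/EBPβ hairpin. It raised it from 4.44% to 22.7% with the shp53 hairpin and from 33.6% to 43.4% with both. The list of PDGF ligands and neuropilin co-receptors had 1 higher and 5 lower of 6 tested (median -0.91, all genes 0.03) in OIS. The ligand genes *PDGFA* (mean 14 to 5.22 CPM, log2 fold change -1.38, edgeR adjusted p = 5.04e-15), *PDGFB* (mean 30.8 to 16.1 CPM, log2 fold change -0.93, edgeR adjusted p = 1.28e-11) and *PDGFD* (mean 8.25 to 2.01 CPM, log2 fold change -1.98, edgeR adjusted p = 2.46e-13) and the co-receptor *NRP2* (log2 fold change -0.90, edgeR adjusted p = 2.29e-16) fell. In OIS-v-v against Grow-v-v cells the list had 0 higher and 4 lower of 6 tested (median -0.70, all genes 0.01), again with *PDGFA* (-0.95), *PDGFB* (-0.62), *PDGFD* (-1.48) and *NRP2* (-0.79) lower. With shA1 it had 1 higher and 2 lower of 6 tested (median -0.16, all genes 0.01) in Grow and 1 higher and 2 lower of 6 tested (median -0.18, all genes -0.00022) in OIS cells. *PDGFD* rose in both (log2 fold changes 0.74 and 0.79), *PDGFA* fell in Grow cells (log2 fold change -0.92, edgeR adjusted p = 1.12e-10) and *PDGFB* fell in OIS cells (mean 16.1 to 5.0 CPM, log2 fold change -1.66, edgeR adjusted p = 8.07e-12). With the C/EBPβ hairpin it had 2 higher and 0 lower of 6 tested (median -0.06, all genes -0.002), namely the co-receptors *NRP1* (mean 131 to 323 CPM, log2 fold change 1.29, edgeR adjusted p = 2.69e-05) and *NRP2* (log2 fold change 0.60, edgeR adjusted p = 0.000863). With the shp53 hairpin 1 was higher and 1 lower with the block only, and with both hairpins the list had 2 higher and 1 lower of 6 tested (median 0.13, all genes -0.01).

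Other mesenchymal surface genes had 2 higher and 15 lower of 18 tested (median -0.91, all genes 0.03) in OIS. The cadherins *CDH11* (mean 221 to 35.3 CPM, log2 fold change -2.60, edgeR adjusted p = 3.01e-25) and *CDH2* (mean 256 to 40.9 CPM, log2 fold change -2.61, edgeR adjusted p = 7.47e-25) and the adhesion molecules *ALCAM* (-2.40) and *MCAM* (-2.06) fell, as they did in OIS-v-v cells (-1.69, -1.67, -1.61 and -1.37), where the list had 3 higher and 8 lower of 18 tested (median -0.11, all genes 0.01). With shA1 the list had 2 higher and 10 lower of 18 tested (median -0.12, all genes 0.01) in Grow and 5 higher and 7 lower of 16 tested (median 0.04, all genes -0.00022) in OIS cells. *CDH11* fell in both, by more in OIS (-1.82) than in Grow cells (-0.80), a difference of -1.02 (edgeR adjusted p = 7.34e-10). With the C/EBPβ hairpin it had 4 higher and 1 lower of 16 tested (median 0.08, all genes -0.002), and 7 higher and 3 lower with the block, among them *ALCAM* (0.65) and *CDH11* (0.81) higher and *PDPN* (-1.77), which encodes podoplanin, lower. With the shp53 hairpin it had 2 higher and 0 lower of 17 tested (median 0.06, all genes -0.0018), and 5 higher and 6 lower with the block. With both hairpins it had 5 higher and 2 lower of 17 tested (median 0.02, all genes -0.01), and 5 higher and 6 lower with the block (43.4% of all genes).

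Other mesenchymal transcription factors had 4 higher and 16 lower of 22 tested (median -0.59, all genes 0.03) in OIS and 2 higher and 13 lower of 22 tested (median -0.61, all genes 0.01) in OIS-v-v cells. *TCF21*, a factor of the lung mesenchyme, fell in both (-3.53 and -2.11), as did *PRRX2*, the paralogue of *PRRX1* (-1.69 and -2.07). *TBX3*, a relative and chromosomal neighbour of *TBX5*, rose in OIS (mean 175 to 281 CPM, log2 fold change 0.72, edgeR adjusted p = 3.81e-16). With shA1 the list had 6 higher and 6 lower of 22 tested (median 0.05, all genes 0.01) in Grow and 5 higher and 8 lower of 22 tested (median -0.12, all genes -0.00022) in OIS cells, with *TCF21* higher in OIS-shA1 cells (log2 fold change 1.03, edgeR adjusted p = 7.78e-07). The C/EBPβ hairpin gave 2 higher and 4 lower of 21 tested (median -0.02, all genes -0.002), and 5 higher and 8 lower with the block. The shp53 hairpin gave 4 higher and 0 lower of 22 tested (median 0.14, all genes -0.0018), and 9 higher and 1 lower with the block, and both hairpins gave 9 higher and 3 lower of 24 tested (median 0.10, all genes -0.01). The E proteins that pair with TWIST factors and the ID proteins that compete for them had 0 higher and 6 lower of 7 tested (median -0.31, all genes 0.03) in OIS and 0 higher and 7 lower of 7 tested (median -1.38, all genes 0.01) in OIS-v-v cells. *ID3* (-2.13 and -2.47), *ID2* (-1.75 and -2.74) and the E protein gene *TCF4* (-1.25 and -1.38) fell in both. In OIS-shA1 cells this list had 1 higher and 3 lower of 7 tested (median -0.46, all genes -0.00022). With the C/EBPβ hairpin it had 3 higher and 0 lower of 7 tested (median 0.42, all genes -0.002), and 5 higher and 0 lower with the block.

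Of the DPP4 peptidase family, 5 genes were tested in IMR90 cells, with 2 higher and 2 lower of 5 tested (median -0.02, all genes 0.03) in OIS and 2 higher and 1 lower of 5 tested (median 0.03, all genes 0.01) in OIS-v-v cells. *DPP7* rose in both OIS comparisons (0.71 and 0.82), as did *PREPL* (0.46 and 0.67), and *DPP8* fell by less (-0.20 and -0.31), though in OIS-v-v cells the list had 0 lower with the block. Neighbours on the chromosomes had 9 higher and 6 lower of 17 tested (median 0.21, all genes 0.03) in OIS, 3 higher and 2 lower of 17 tested (median 0.08, all genes 0.01) in Grow-shA1 and 2 higher and 4 lower of 16 tested (median -0.08, all genes -0.00022) in OIS-shA1 cells. *IFIH1*, an RNA sensor gene next to *FAP*, was higher with the C/EBPβ hairpin (mean 2.97 to 5.12 CPM, log2 fold change 0.78, edgeR adjusted p = 0.00645), with the shp53 hairpin (1.01) and with both (2.07), whereas *FAP* fell with the first and the last of these. *GCG*, the glucagon gene between *DPP4* and *FAP*, did not pass the filter, with group means of 0 to 0.0276 CPM in IMR90 cells.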

How the data were processed

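RNA-seq libraries of IMR90 and H1299 cells were analysed from 3 tables of counts. The authors made poly(A) libraries with 1 of 2 stranded kits, which were read on a HiSeq-4000 or a NovaSeq-6000. STAR was used for alignment to hg19, and GENCODE19 exons were the features counted. The deposited values are raw counts of reads or fragments per gene, without normalization. Which library had which kit or machine is not given in the sources used here. The headers of the 2 tables that have one name featureCounts 1.5.2 and counting without regard to strand, with ambiguous and multiply aligned reads dropped. The third table, of the second IMR90 experiment, has no header.

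Symbols were found for 42662 of the 44503 identifiers. Groups follow the labels. A comparison was fitted on the libraries of the groups compared, with edgeR 4.0.16 (R 4.3.3). TMM factors, the filterByExpr function (minimum of 10 counts), the quasi-likelihood F test and Benjamini-Hochberg adjustment over all genes tested were used. Genes with an adjusted p under 0.05 were called, whatever the fold change. The standard error is the size of the log2 fold change divided by the square root of F, and intervals are 1.96 standard errors to either side (95%). Interactions were fitted with all 4 groups they involve. For CPM, the TMM factors came from the whole table. The fits were tested on simulated counts. The level of 1 targeted gene is not reported here. The 10 members were named in every comparison, and of each other list up to 4 genes with the smallest adjusted p among those called with a mean of at least 1 CPM. In the list of neighbours, *FENDRR*, *TBX5-AS1*, *GCG* and *IFIH1* were also taken. The members and lists were chosen with earlier results of these data known.

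The correlation between deviations of same-numbered libraries from their group means was at least 0.142 for every pair in the comparisons of the second IMR90 experiment, which was taken as pairing. Its median between libraries of other numbers was -0.10 to -0.45. The best match had the same number for 2 or 3 of 5 libraries, so pairing by number cannot be told apart from the 2 sets of libraries. The lowest correlation was -0.0153, -0.113 and -0.148 in the comparisons of the first experiment and -0.145 in H1299 cells, so numbers there were not taken as pairs. No 2 libraries of a group agreed within sampling noise. Alternatives were DESeq2 1.42.0, 2 other scalings (upper-quartile factors and plain library sizes), 2 other filters (a minimum of 1 count, or of 10 in all libraries), a threshold of 0.01, a 1.5-fold minimum, the replicate number as a block, a fit over all groups of a table, and each library left out in turn. The sets of libraries 1 to 3 and 4 and 5 were chosen after seeing the data. Plots were made in matplotlib 3.10.9 (Python 3.11.15).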

Additional observations from a re-analysis of the deposited data

Results flagged for a closer look

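For 4 members the change with shA1 differed between OIS and Grow cells by the interaction test of edgeR. The change in OIS minus that in Grow was 1.16 on the log2 scale for *FAP* (adjusted p = 5.79e-09), -0.33 for *DPP4* (adjusted p = 0.00915), -0.37 for *PDGFRB* (adjusted p = 0.000604) and -0.33 for *FOXF1* (adjusted p = 6.12e-05). For *FAP* the direction turned, while *DPP4* and *FOXF1* rose by less in OIS cells and *PDGFRB* fell by more.

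In 5 of 97 pairs of a gene and a group, 1 library stood far from the others, and chance gives about 1 in 20. *DPP4* was 147 CPM in Grow-shA1 replicate 6, where the nearest library had 122.5 CPM, and *PDGFRB* was 324 CPM in Grow replicate 7, where the nearest had 306 CPM. *TWIST1* was 13.8 CPM in OIS replicate 4, the library with 1903607 counts, where the nearest had 8.26 CPM. *TWIST1* was also 18 CPM in H1299 replicate 1 beside 15.8 CPM, and 18.4 CPM in H1299-shA1 replicate 3 beside 16.7 CPM.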

How the results depend on the processing

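Counts of called members kept within 1.5 times of the reported count under the other alternatives run, and moved as follows. With a 1.5-fold minimum, 5 members were called in OIS against Grow, 0 in Grow-shA1, 2 in OIS-shA1, 1 for the difference between these changes, 1 with the C/EBPβ hairpin and 3 with both hairpins. With the replicate number as a block, 7 were called with the C/EBPβ hairpin, 7 with the shp53 hairpin and 1 (*DPP4*) for the double knock-down minus the sum, and the block changed no other count by more than 1.5 times. In the first experiment and in H1299 cells, where numbers do not pair, it gave 9, 8, 8 and 1 called members, and 5 against 4 (with *THY1*) for the difference between the shA1 changes. Libraries 1 to 3 alone gave 9 in OIS-v-v against Grow-v-v, 5 with the C/EBPβ hairpin, 7 with the shp53 hairpin and 4 for the double knock-down minus the sum (66.8%, 32.6%, 34% and 3.32% of all genes tested), and libraries 4 and 5 alone gave 5, 5, 3 and 3 (40.5%, 24.6%, 5.33% and 2.13%). DESeq2 called 1 member for that sum. Leaving out 1 library gave 1 to 2 called members with the shp53 hairpin (2 without OIS-v-v replicate 5) and 1 to 2 in H1299 cells. Within libraries 1 to 3 *FOXF1* reversed to -0.15 in OIS-v-v, and within libraries 4 and 5 *PDGFRA* reversed to 0.70 in OIS-v-v and to -0.32 with both hairpins. The cause was not tested. Of single log2 fold changes under settings that kept all libraries or split them by number, 678 kept their call, 49 gained one, 11 lost one and 3 reversed, and with 1 library left out 1419 kept it, 14 gained and 19 lost one.

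Library sizes alone shifted the median of all genes by 0.19 in OIS against Grow, by -0.12 for the difference between the shA1 changes and by 0.10 with both hairpins. The share of higher genes among all called was then 66.2% against 51.9% in OIS against Grow, 60.3% against 49.4% in Grow-shA1, 27.8% against 52.3% in OIS-shA1, 20.4% against 51.7% for their difference, 70.9% against 53.2% with the C/EBPβ hairpin and 71.0% against 50.9% with both hairpins. At this depth of 1903607 counts, *TWIST1* rests on 29 counts in OIS replicate 4, *TBX5* on 27 and *TWIST2* on 9. Their levels there are less precise than in other libraries.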

Other observations

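The matrix and contractile genes that fibroblasts make were also counted, with the median log2 fold change of a list and of all genes tested in parentheses. Of the fibroblast matrix markers there were 1 higher and 11 lower of 12 tested (median -2.04, all genes 0.03) in OIS, among them the collagen genes *COL1A2* (mean 12223 to 924 CPM, log2 fold change -3.69, edgeR adjusted p = 4.2e-27) and *COL3A1* (mean 2647 to 285 CPM, log2 fold change -3.18, edgeR adjusted p = 2.74e-24), and 1 higher and 8 lower of 12 tested (median -0.63, all genes 0.01) in OIS-v-v cells. With shA1 they were 3 higher and 7 lower of 12 tested (median -0.28, all genes 0.01) in Grow and 6 higher and 2 lower of 12 tested (median 0.12, all genes -0.00022) in OIS cells. *DCN*, which encodes the collagen-binding proteoglycan decorin, rose in OIS-shA1 cells (mean 22.3 to 95 CPM, log2 fold change 2.10, edgeR adjusted p = 4.46e-19). The change with shA1 was more positive in OIS than in Grow cells for 7 of 12 and more negative for 0 by edgeR (median 0.42, all genes -0.01). Of all genes tested, 12.2% were more positive and 11.4% more negative. Of the myofibroblast markers there were 0 higher and 6 lower of 6 tested (median -3.80, all genes 0.03) in OIS, with the actin gene *ACTA2* (mean 420.1 to 32.3 CPM, log2 fold change -3.66, edgeR adjusted p = 6.66e-27) among them, 0 higher and 6 lower of 6 tested (median -0.49, all genes 0.01) in Grow-shA1 and 0 higher and 5 lower of 6 tested (median -0.52, all genes -0.00022) in OIS-shA1 cells. With the C/EBPβ hairpin 2 of the 6 were higher (5 with the block), where 17.1% of all genes were called (31.9% with the block). With the shp53 hairpin 1 was lower (4 with the block), where 4.44% of all genes were called (22.7% with the block).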
